A study of Arabidopsis thaliana with 6 samples.

Results

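WRKY proteins are transcription factors of plants. They bind DNA through the WRKY domain, a conserved stretch followed by a zinc finger, which recognises a short promoter element called the W-box. Group I proteins carry a pair of these domains and group II proteins a single one with the same type of zinc finger. Group III proteins have a single domain with a different zinc finger, and group II is further divided into subgroups IIa to IIe. The family is best known in leaves for its part in pathogen defence, salicylic acid signalling and senescence, and several members also act in responses to drought and abscisic acid. Many WRKY genes carry W-boxes in their own promoters, so members of the family regulate each other.

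The members described here are the genes with the symbol WRKY and a number for which a single-gene probe set could be named. Since 8135 probe sets had no gene name here, the array may represent further members. The gene table used lists 67 such symbols, and 10 of them could be tied to a probe set, 6 through the platform annotation and 4 (WRKY15, WRKY54, WRKY74 and WRKY75) through the probe set names given by the study. The other 57 were not analysed here, among them all 3 genes of group IIa (WRKY18, WRKY40 and WRKY60). The names given by the study were read from 1932 rows, which cover only a part of the array. Whether the presence of a gene in those rows depended on its response to water deficit was not tested. The 10 genes comprise WRKY20 of group I, WRKY6, WRKY42 and WRKY47 of group IIb, WRKY75 of group IIc, WRKY15 and WRKY74 of group IId, WRKY22 of group IIe, and WRKY53 and WRKY54 of group III. Groups were assigned from general knowledge of the family, so the counts by group below are those of few genes each. In all, 13938 genes could be named from a single-gene probe set, among 22746 non-control probe sets.

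Transcript levels were measured in whole vegetative rosettes of Arabidopsis thaliana, accession Col-0, on Affymetrix ATH1 arrays. Treatment began at an age of 4 weeks. There were 3 watered replicates and 3 water deficit replicates, the latter from drying plants harvested at 65% relative water content. The labels name no transgene or mutation. Each array carried the RNA of 1 of the independent replicates, and how many plants a replicate held is not given in the sources. Because the tissue was a whole rosette, fewer cells expressing a gene and less of its RNA per cell cannot be told apart.

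The arrays differed in brightness, with median background-subtracted signals from 12.6 to 51.6, and replicate 1 was the dimmest of each group. Signals were therefore quantile normalized and are given on the log2 scale, with everything below a background floor of 4.21 raised to it. The labelled tissue was checked against markers. The 5 rosette leaf genes with a probe set, for photosynthesis, had mean watered log2 signals from 11.54 to 13.02. All 5 were called lower in the drying plants, beside 23% of the 13703 tested probe sets (limma, adjusted p under 0.05). Their median log2 fold change was -1.31, and that of all tested probe sets was 0.04. The flower gene PI was above the floor on 1 array of each group, and markers of roots and seeds were not analysed here. FAMA, a gene of the guard cell lineage, was not called, with a log2 fold change of -0.38. The ratio of the 3′ to the 5′ actin control, which rises when RNA is degraded, was 3.50, 2.02 and 1.93 on watered arrays 1 to 3 and between 1.74 and 1.78 on the water deficit arrays. These ratios did not overlap between the groups, and leaving out watered replicate 1 does not change that. Values without watered replicate 1 are given with the ranking of the genes below. Whether the fall of the leaf markers bears on the WRKY values was not tested.

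Of the 10 WRKY genes, 6 were above the floor on 3 or more of the arrays and were tested. Transcripts of WRKY54, WRKY53 and WRKY22 fell under water deficit, and that of WRKY6 rose. WRKY15 and WRKY20 had smaller, negative log2 fold changes that did not pass the test without pairing of the replicates and passed it with pairing. By group, both tested members of group III and the tested member of group IIe fell, the tested member of group IIb rose, and the members of groups I and IId were not called. The 4 calls among 6 tested genes compare with 44.9% of all 13703 probe sets tested at a limma adjusted p under 0.05. For the falls, 3 of 6 stand beside 23% of all probe sets, and for the rises, 1 of 6 beside 21.8%. With 6 genes these shares are too coarse to set the family apart from the background. The median log2 fold change of the 6 was -1.46, compared with 0.04 over all tested probe sets. WRKY54 and WRKY6 exceeded the floor on a single array of the group where they were lower, so the count follows in part from the filter. The median was also -1.46 for the 4 genes above the floor on all 6 arrays. It could not differ, because that filter removed the lowest value (WRKY54) and the highest (WRKY6), so it is no check on the filter. Among these 4 genes 2 were called lower, beside 2514 of the 10744 probe sets under that filter. In either direction, 44.2% of those probe sets were called.

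WRKY54, which acts with WRKY70 as a repressor of leaf senescence and in salicylic acid signalling, had log2 signals of 7.37, 7.06 and 8.33 on watered arrays 1, 2 and 3. On the water deficit arrays it had 5.49 on replicate 1 and was at the floor of 4.21 on replicates 2 and 3. All watered arrays were therefore above all water deficit arrays, and the transcript was above background in a single water-stressed replicate. The log2 fold change was -2.95 ± 0.44 (SE, n = 3 per group, limma adjusted p = 0.00121), so WRKY54 was at least 7.75-fold lower. Between arrays of the same replicate number the difference was -1.88, -2.86 and -4.12, the last 2 of which are bounds set by the floor. With values raised only to their 25th percentile it was -3.76.

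WRKY53, a group III factor that promotes leaf senescence, had log2 signals of 7.88, 7.16 and 7.50 on the watered arrays. Under water deficit the signals were 5.70, 5.06 and 4.46, all above the floor. The groups did not overlap, with means of 7.51 ± 0.36 and 5.08 ± 0.62 (SD, n = 3 each). This was a log2 fold change of -2.44 with an SE of 0.33 (n = 3 per group, limma adjusted p = 0.000838), or 5.41-fold lower. The fall was -2.18, -2.10 and -3.04 between arrays of the same replicate number.

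WRKY22, a group IIe factor induced downstream of the mitogen-activated protein kinase cascade in flagellin perception, had log2 signals of 8.52, 8.60 and 7.47 on the watered arrays. The signals under water deficit were 5.57, 6.03 and 6.07. Watered replicate 3 was the lowest watered array and still stood above every water deficit array. WRKY22 fell 4.95-fold, by 2.31 ± 0.33 on the log2 scale (SE, n = 3 per group, limma adjusted p = 0.000952). Its decrease was -2.95, -2.57 and -1.40 between arrays of the same number. Without watered replicate 3 the log2 fold change of WRKY22 was -2.67.

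WRKY6, a group IIb factor of senescence and defence that also represses the phosphate exporter gene PHO1, went the other way. Its log2 signal was 4.86 on watered replicate 1 and at the floor on watered replicates 2 and 3. Under water deficit the signals were 6.10, 6.66 and 5.93, so that all 3 water deficit arrays were above all watered arrays. On the log2 scale the rise was 1.80 ± 0.27 (SE, n = 3 per group, limma adjusted p = 0.00129), and the transcript was at least 3.49-fold higher. The differences by replicate number were 1.23, 2.45 and 1.72, of which the values for replicates 2 and 3 are bounds.

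**Figure D1:**
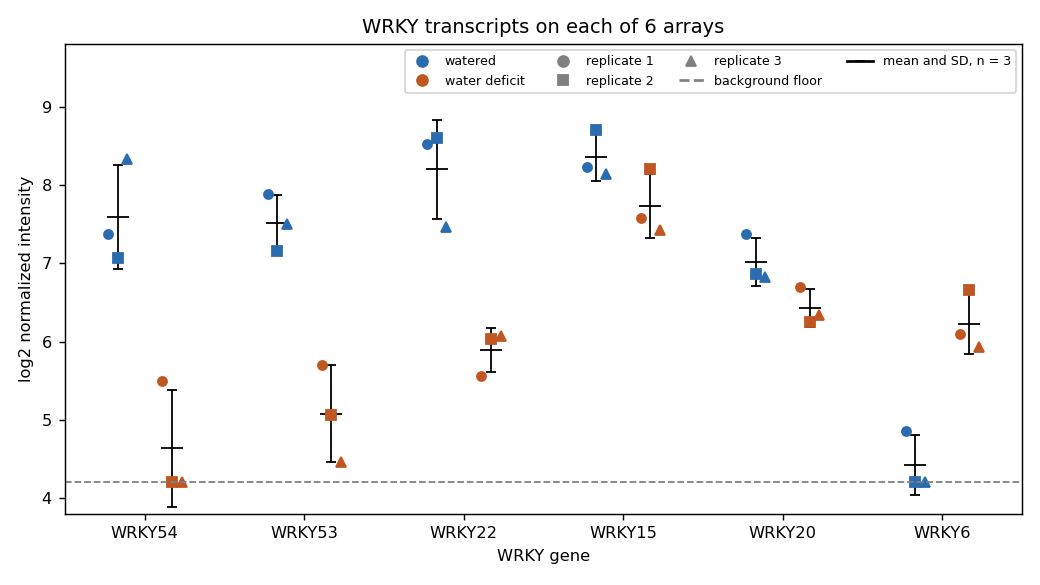
Log2 normalized intensity (y axis) of the 6 tested WRKY genes (x axis) on the 3 watered (blue) and 3 water deficit (orange) arrays, with symbols for the replicate number, bars for the mean ± SD (n = 3) and a dashed line at the background floor of 4.21. WRKY54, WRKY53 and WRKY22 lay lower and WRKY6 higher on every water deficit array than on any watered array, WRKY20 was also lower on every water deficit array by a smaller margin, and the values of WRKY15 overlapped between the groups.

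Neither WRKY15 nor WRKY20 passed the test without a block. WRKY15, a calmodulin-binding type of group IId that acts in growth and in salt and osmotic stress responses, had log2 signals of 8.23, 8.70 and 8.14 on the watered arrays and 7.58, 8.20 and 7.42 on the water deficit arrays. The groups overlapped, since water deficit replicate 2 was above watered replicate 3. Within each replicate number, however, the water deficit array was lower, by differences of -0.65, -0.50 and -0.71. The log2 fold change of -0.62 had an SE of 0.26 (limma adjusted p = 0.0882). With the replicate number as a block the SE was 0.15 and the adjusted p 0.0191, and without water deficit replicate 2 the unblocked adjusted p was 0.0397, at a log2 fold change of -0.85.

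WRKY20, the group I member, had log2 signals of 7.37, 6.86 and 6.83 when watered and 6.70, 6.24 and 6.33 under water deficit. Here the groups did not overlap, which was true of 56.4% of all tested probe sets. WRKY20 had a log2 fold change of -0.59 ± 0.22 (SE, limma adjusted p = 0.0633). The adjusted p was 0.0216 under the replicate block, and it was 0.0476 without water deficit replicate 1, at a log2 fold change of -0.73. Differences between arrays of the same number were -0.67, -0.61 and -0.49. Counted with the block, 5 of the 6 tested WRKY genes were lower and 1 was higher. Of all 13703 probe sets in that fit, 3493 were called lower and 3519 higher, or 51.2% in either direction. For both genes the sizes depended on the scaling of the arrays: without scaling the log2 fold changes were -0.08 for WRKY15 and -0.02 for WRKY20.

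The other 4 members lay at or near background and were not tested. WRKY75, a group IIc factor of phosphate starvation and senescence, had normalized intensities (linear scale, floor 18.5) of 0.0457, -5.65 and 0.446 on the watered arrays. Under water deficit it had 11.9, 59.8 and 14.4, so that only replicate 2 exceeded the floor. WRKY47 of group IIb had 29.8, 32.9 and 14.1 on the watered arrays and 10.8, 9.57 and 8.64 on the water deficit arrays. Watered replicates 1 and 2 were above the floor, and the other 4 values of WRKY47 were below it. All 6 values of WRKY42, a IIb factor of phosphate uptake, ran from -4.04 to 5.31. Those of WRKY74 of group IId ran from -12.9 to 10.9. Signals below the floor have no reliable order, so no fold is given for these 2 genes.

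**Figure D2:**
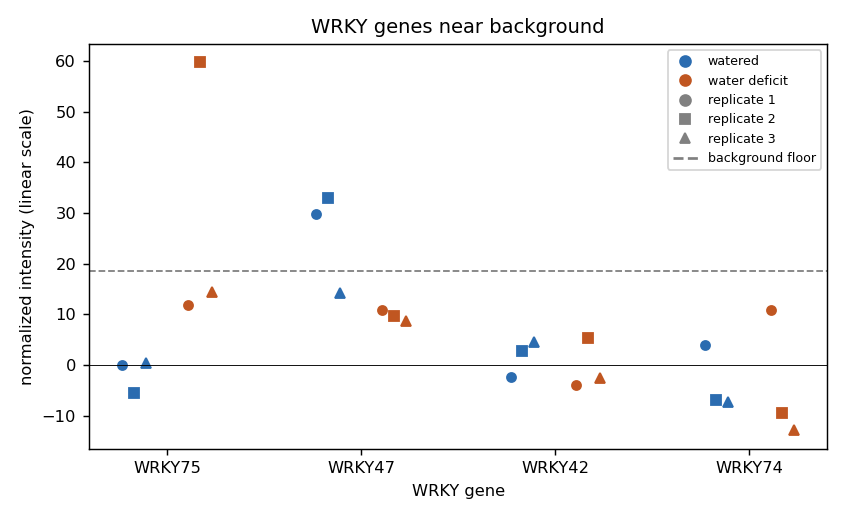
Normalized intensity on a linear scale (y axis) of the 4 WRKY genes that were not tested (x axis), on watered (blue) and water deficit (orange) arrays with symbols for the replicate number; the dashed line is the floor of 18.5. Only WRKY75 on water deficit replicate 2 (59.8) and WRKY47 on watered replicates 1 and 2 (29.8 and 32.9) exceeded the floor.

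Entered into the fit without a filter, at the same floor, WRKY75 had a log2 fold change of 0.57 (SE 0.54, limma adjusted p = 0.642) and WRKY47 one of -0.51 (SE 0.25, limma adjusted p = 0.284), so neither was called. A floor at the 25th percentile of normalized values (4.40 units) lies inside the range of the Bacillus controls. At that floor the fitted log2 fold changes were 2.30 for WRKY75 (limma adjusted p = 0.0296) and -1.32 for WRKY47 (limma adjusted p = 0.0324). Most of the signals behind both values were below the background floor of 18.5, so the sizes are not measured differences, and neither gene is counted as changed here. Under this lower floor 2 members of the family were called higher and 4 lower among 8 tested, beside 30.9% of all probe sets called. With no scaling WRKY47 had a log2 fold change of -0.64 and an adjusted p of 0.645.

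Within group IIb the 3 genes therefore had different patterns: WRKY6 was above background mainly under water deficit, WRKY47 on watered replicates 1 and 2 alone, and WRKY42 on no array. In group IId, WRKY15 was above the floor on all 6 arrays and WRKY74 on none. Group III was the only group in which more than 1 member was tested, and its median log2 fold change was -2.70 over the 2 genes. This median is a bound, because the value of WRKY54 is one, and it was -3.10 with the floor at the 25th percentile.

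ZAP1, a group I factor whose synonym is WRKY1 and which the symbol rule leaves out, did not pass the test. Its log2 signals were 7.38, 6.63 and 6.45 when watered and 7.58, 7.17 and 7.04 under water deficit, and the groups overlapped. The log2 fold change was 0.44 ± 0.28 (SE, n = 3 per group, limma adjusted p = 0.236). Of the group I genes with a probe set, ZAP1 had a positive and WRKY20 a negative value.

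**Figure D3:**
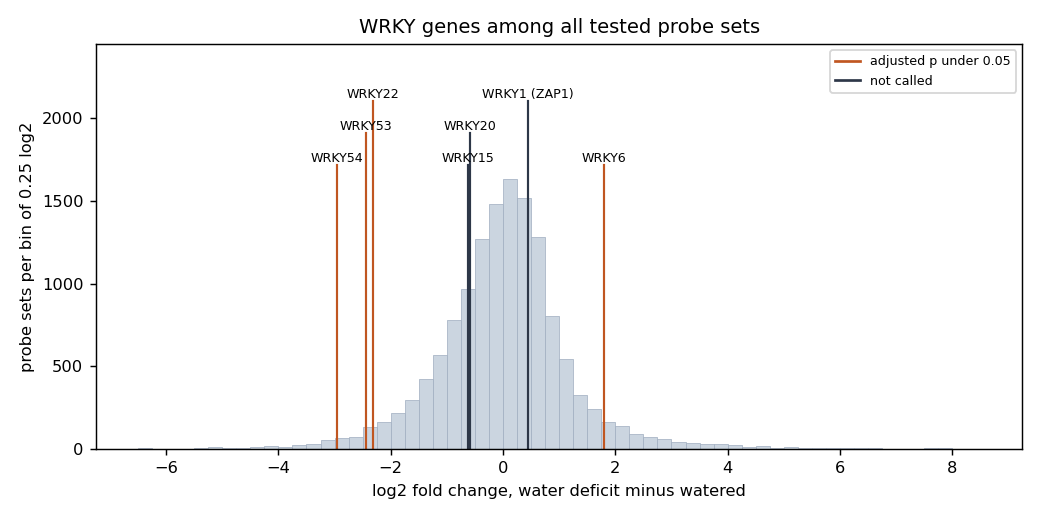
Number of probe sets per bin of 0.25 (y axis) by log2 fold change, water deficit minus watered (x axis), for all 13703 tested probe sets, with lines for the 6 tested WRKY genes and ZAP1 (orange where the limma adjusted p was under 0.05). WRKY54, WRKY53 and WRKY22 stood at -2.95, -2.44 and -2.31 in the lower tail and WRKY6 at 1.80 in the upper tail (bounds for WRKY54 and WRKY6), while WRKY15, WRKY20 and ZAP1 lay within the bulk.

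In the ranking of all tested probe sets by log2 fold change as fitted, WRKY53 and WRKY22 stood at the 2.42th and 2.93th percentiles, and WRKY15 and WRKY20 at the 24.5th and 25.2th. The fold changes of WRKY54 and WRKY6 are bounds, so no rank is given for them. Of the 6 tested genes, 4 were both called and changed at least 2-fold, beside 27.9% of all 13703 tested probe sets under the same 2 conditions. Every call among the 6 held when any single array was left out. With the values unscaled, WRKY22 and WRKY53 were not called (log2 fold changes of -1.75 and -1.89). Without watered replicate 1, the array with the highest actin ratio, the log2 fold changes were -3.06 for WRKY54, -2.25 for WRKY53, -2.15 for WRKY22 and 2.02 for WRKY6, with limma adjusted p-values from 0.00129 to 0.00406.

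**Figure D4:**
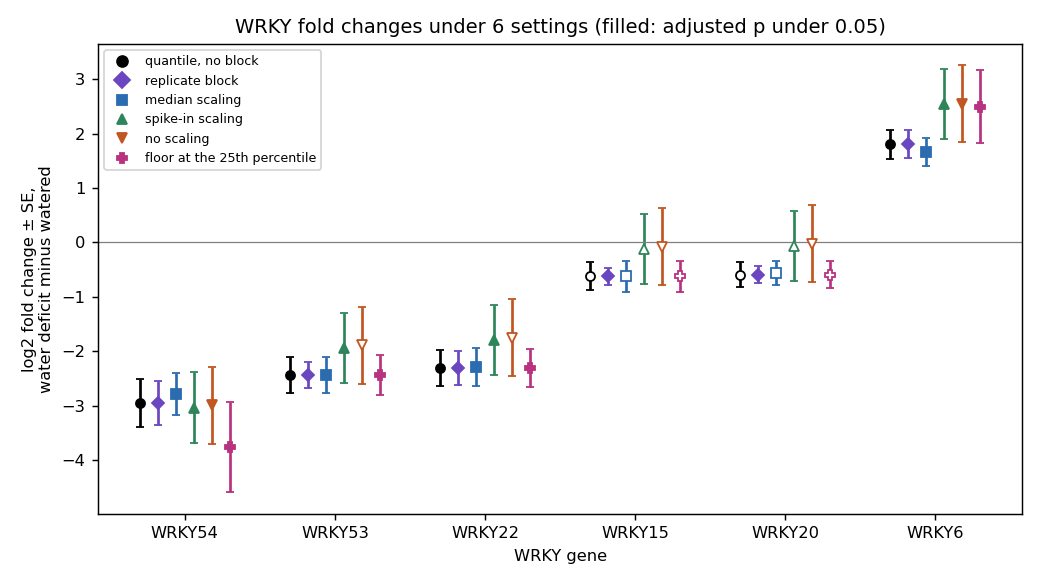
Log2 fold change ± SE, water deficit minus watered (y axis), of the 6 tested WRKY genes (x axis) under quantile normalization without and with the replicate block, 3 other scalings and a lower floor; filled symbols had a limma adjusted p under 0.05. WRKY54, WRKY53 and WRKY22 stayed below 0 and WRKY6 above 0 in all 6 settings, and WRKY15 and WRKY20 came close to 0 with spike-in scaling (-0.12 and -0.06) and no scaling.

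Genes that act with WRKY factors were taken from lists of upstream kinases, protein partners and downstream pathways. Named probe sets were found for 7 of the 79 listed genes. All 7 were tested, and 1 rose, 4 fell and 2 did not pass the test, beside 21.8% of all tested probe sets called higher and 23% called lower. No gene of the kinase, abscisic acid and phosphate lists had a named probe set. VQ proteins bind WRKY domains through a short motif, and 2 of the 3 measured ones were called lower, beside 23% of all probe sets, although the call on SIB1 was lost in most fits without a single array. IKU1, the VQ partner of a group I factor in seed growth, had log2 signals of 6.51, 6.30 and 5.95 when watered and 4.66, 4.83 and 5.31 under water deficit. Its log2 fold change was -1.32 ± 0.24 (SE, n = 3 per group, limma adjusted p = 0.00318), and the groups did not overlap. SIB1, a VQ protein that binds WRKY33, fell by 0.71 ± 0.23 on the log2 scale (limma adjusted p = 0.0353). For MVQ1, a VQ protein phosphorylated by stress-activated kinases, it was -0.53. The limma adjusted p of MVQ1 was 0.138 without the replicate block and 0.0483 with it.

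In the defence lists, SAG101, a partner of the immune regulator EDS1, had log2 signals of 5.98, 6.07 and 5.89 when watered. Under water deficit it was at the floor on replicates 1 and 2 and at 4.68 on replicate 3. Its level fell at least 3.06-fold, at a limma adjusted p of 0.000467. The value of BIK1, a receptor-associated kinase of flagellin signalling, was -0.48 on the log2 scale. The limma adjusted p of BIK1 was 0.109 unblocked, 0.0481 when blocked by replicate and 0.0247 without watered replicate 1. The jasmonate-responsive defensin gene PDF1.2 fell and the senescence-associated sugar transporter gene SAG29 rose, with log2 fold changes of -1.77 and 6.56. Every water deficit array of PDF1.2 and every watered array of SAG29 lay at the floor, so these values are bounds. The calls in these lists depended on the setting. Without scaling the log2 fold changes of SIB1, IKU1, MVQ1, SAG101 and BIK1 were -0.18, -0.75, 0.06, -1.07 and 0.10, none of them called. With spike-in scaling SIB1, IKU1 and SAG101 lost their calls as well (limma adjusted p = 0.868, 0.465 and 0.282). The call on SIB1 was also lost without watered replicate 2 or 3 or without any 1 of the water deficit arrays (adjusted p from 0.0658 to 0.0961). That on PDF1.2 was lost without watered replicate 1 or 3 or any 1 of the water deficit arrays (adjusted p from 0.0691 to 0.0806). With no filter on low values neither SIB1 nor PDF1.2 was called (limma adjusted p = 0.109 and 0.172). SIB1 also lost its call with the floor at the 25th percentile (0.0738), and PDF1.2 without both replicate 1 arrays (0.141).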

How the data were processed

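The deposited values were linear intensity per probe set. The authors had generated them with the Affymetrix operating software and Rosetta Resolver, with background subtraction. The paper also names normalization in Rosetta Resolver, but the deposited medians differed between arrays, from 12.6 to 51.6. Per array, 13.2% to 17.8% of the values did not exceed 0. The genome build is not given in the sources used. Of 22810 probe sets 64 were controls. The main design was written for a quantile normalization because earlier results of these data were known, and the members and gene lists were also chosen with those results known. Intensities were quantile normalized over the 6 arrays, raised to a floor of 18.5 units (the highest value of 27 Bacillus control probe sets) and converted to log2. Probe sets above the floor on at least 3 arrays were tested (13703, or 60.2%).

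Groups were compared with limma 3.58.1 (lmFit, eBayes, two-sided) in R 4.3.3, with p-values adjusted by Benjamini-Hochberg over the tested probe sets and calls at an adjusted p under 0.05. The fit was also run on simulated data with independent noise, 200 changed probe sets and no pairing. That setting is unlike these data, and no result from it is used here. A fold is a lower bound where any array of the dimmer group was at the floor. Same-numbered samples deviated together from their group means (correlations of 0.291, 0.230 and 0.393, against -0.381 to 0.0285 for other pairs), so the numbers in the sample titles were taken to pair the samples, and the model was also fitted with that number as a block. Deviations cancel out within a group, so part of this contrast is built in.

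Names came from the platform annotation (13513 probe sets with 1 gene and 503 with several), updated through the NCBI gene table (TAIR10.1), and for 595 further probe sets from the names in 1932 rows of the study's annotation. Where both annotations named 1 nuclear locus, they gave the same locus for 98.7% of 1037 probe sets. Array values were named for every WRKY member called with an absolute log2 fold change of at least 1 and for group IIa, which had no named probe set. Listed pathway genes were named at up to 4 per list. The members not called and ZAP1 were added after their values were seen. Alternatives were other scalings, another floor, other filters, the block, an intensity trend and leaving out arrays. Authors' ratio columns were not used.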

Additional observations from a re-analysis of the deposited data

How the results depend on the processing

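WRKY54, WRKY53, WRKY22 and WRKY6 kept their direction in every alternative in which they were tested, and WRKY54 and WRKY6 also kept their call. With no scaling 1 WRKY gene was called lower instead of 3. The floor was then 11.2 units instead of 18.5, and 7 WRKY genes were tested instead of 6, with WRKY47 added. WRKY22 and WRKY53 lost their calls, with log2 fold changes of -1.75 and -1.89 (limma adjusted p = 0.107 and 0.0717). Of 14915 tested probe sets 1400 were called, against 6146 of 13703. With spike-in scaling, at a floor of 10.8 units, 1869 of 14999 were called, and the WRKY calls were those of the main fit. The share of calls that were higher was 48.7% after quantile normalization, 73.6% with no scaling and 71.9% with spike-in scaling, where the median log2 fold change of all tested probe sets was 0.51 and 0.48. With the floor at the 25th percentile 2 WRKY genes were called higher, WRKY6 and WRKY75, the latter from signals mostly below the main floor. When all 6 arrays had to exceed the floor, 0 were called higher by limma, because WRKY6 then failed the filter, and the 4 members left all had negative log2 fold changes, of which 2 were called. With the replicate block 5 were called lower instead of 3, through WRKY15 and WRKY20, which also changed 2 of the 7 listed genes, MVQ1 and BIK1, to lower. Leaving out single arrays, 1 WRKY gene was higher each time, 3 to 4 were lower, and 4589 to 5984 probe sets were called. WRKY15 passed without water deficit replicate 2 (adjusted p = 0.0397), and WRKY20 without water deficit replicate 1 (0.0476) or without both replicate 1 arrays (0.0408). With names from the platform annotation alone, an alternative chosen after seeing the data, 1 member was higher and 2 were lower among 4 tested. The 3 arrays per group limit the precision, and signals below the floor carry no order.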
